A study of Mus musculus with 4 samples.

Results

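The proteasome subunit genes were examined in RNA sequencing libraries of cultured mouse macrophages. They were taken by symbol, as rows named Psma, Psmb, Psmc, Psmd, Psme, Psmf or Psmg followed by a number. Psmb8 and Psmb9 were left out of the members by the rule, and a count of at least 10 in at least 2 libraries was required. Of 48 symbols that fitted, 2 were left out by name and 1 was below the minimum. That gene was Psmb11, a core subunit of the thymus, which had 0 counts in every library. The remaining 45 genes were the members, of 34745 genes in the table and 12524 with the same minimum count. All 45 were among the 12418 genes tested after a filter on low counts.

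The macrophages carried loxP sites in G3bp1 in both genotypes. G3BP1 is an RNA-binding protein and the scaffold of stress granules, the cytoplasmic condensates of protein and untranslated mRNA that form under stress. The controls, labelled WT, were G3bp1f/f, and the other genotype, labelled KO and named G3bp1mac-/-, was G3bp1f/f crossed to Lyz2-Cre, which acts in monocytes, macrophages and granulocytes. The cells were grown in DMEM with serum, and the labels name no added stimulus. Each genotype had 2 libraries, numbered 1 and 2, and the sources used here tie no age to the animals of these libraries and do not say how many animals gave each. The p-values below therefore measure the spread between these libraries, which may be partly technical.

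The proteasome degrades proteins that carry ubiquitin chains. Its core particle is a barrel of stacked rings, with outer rings of alpha subunits (Psma genes) that gate the entrance and inner rings of beta subunits (Psmb genes) that hold the proteolytic sites. A regulatory particle caps the barrel. Its base holds the ATPases that unfold substrates (Psmc genes) and ubiquitin receptors, and its lid holds the deubiquitinase that removes the chains. Other activators, PA28 and PA200, and the inhibitor PI31 can also bind the core, and dedicated chaperones assemble the complex. In macrophages, interferon induces an alternative set of catalytic subunits and PA28, which shape the peptides presented on MHC class I. The members comprised 8 core alpha, 8 core beta, 9 base, 8 lid, 5 regulator and 7 assembly genes.

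The libraries held between 16724241 and 19747909 counts. In them G3bp1, the targeted gene, had 1691 and 2875 counts in the WT libraries against 1307 and 2296 in those of KO (log2 fold change -0.61, SE 0.40, adjusted p 0.904 in edgeR). Its CPM was lower in KO within both numbers (log2 ratios -0.57 and -0.63), and counts over a whole gene do not resolve lost exons. The study itself reports efficient loss of G3BP1 in macrophages of the KO mice, from mRNA and protein. Markers of macrophages summed to between 21991 and 27767 CPM (counts over the TMM-scaled total of each library) in every library, and KO replicate 1 had the lowest sum. Stromal markers summed to 78.6 and 92.1 CPM in WT and 345 and 322 CPM in KO, with all 8 of the list detected and 7 of 8 higher in both KO libraries. Proliferation markers summed to 35.5 and 56.2 CPM in WT and 90.1 and 87.2 CPM in KO. B cell markers (21.4 and 22.5 CPM in WT, 11.6 and 10.9 in KO), neutrophil markers (22.1 and 21.2 against 7.72 and 11.3, 2 of 8 at 0 throughout), mast cell and basophil markers (34.1 and 36.8 against 18.7 and 22.4, 1 of 6 at 0) and erythroid markers (10.1 and 7.15 against 1.88 and 2.39, 1 of 4 at 0) were lower in KO. Markers of dendritic cells summed to at most 7.59 CPM and those of T and NK cells to at most 1.48 CPM. The part of these cells in the results below was not tested, and in bulk RNA fewer cells of a type and less RNA per cell cannot be told apart.

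No subunit passed the test between genotypes. EdgeR's quasi-likelihood test, with an adjusted p under 0.05 and a fold change over 2, called 0 of 45 members, and it called 0 of all tested genes (0%). Adjusted p-values of the members ran from 0.795 to 0.993. At an unadjusted p under 0.05, 0 members were lower and 0 were higher, where 1.99% of all tested genes were lower and 4.64% were higher. Most values nevertheless lay on one side of 0. The log2 fold change of KO over WT was below 0 for 38 of 45 members (84.4%) against 45.4% of all tested genes, and its median was -0.28 over the members and 0.04 over all tested genes. Both KO libraries lay below both WT libraries for 17 of 45 members, where 16.9% of all tested genes did so. Both lay above for 2 members, Psmd2 and Psme4, where 19.9% of all tested genes did so.

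These values rested mostly on KO replicate 1. It was the lowest of the 4 libraries for 37 of 45 members, and for 24.9% of all tested genes. Without it the median over the members was -0.04, and without KO replicate 2 it was -0.51. Between the libraries numbered 1, the median KO to WT ratio was -0.53 on the log2 scale and 40 of 45 members were below 0. Within number 2 the median was -0.07 and 31 were below 0. For all tested genes these medians were 0.11 and 0.00.

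**Figure D1:**
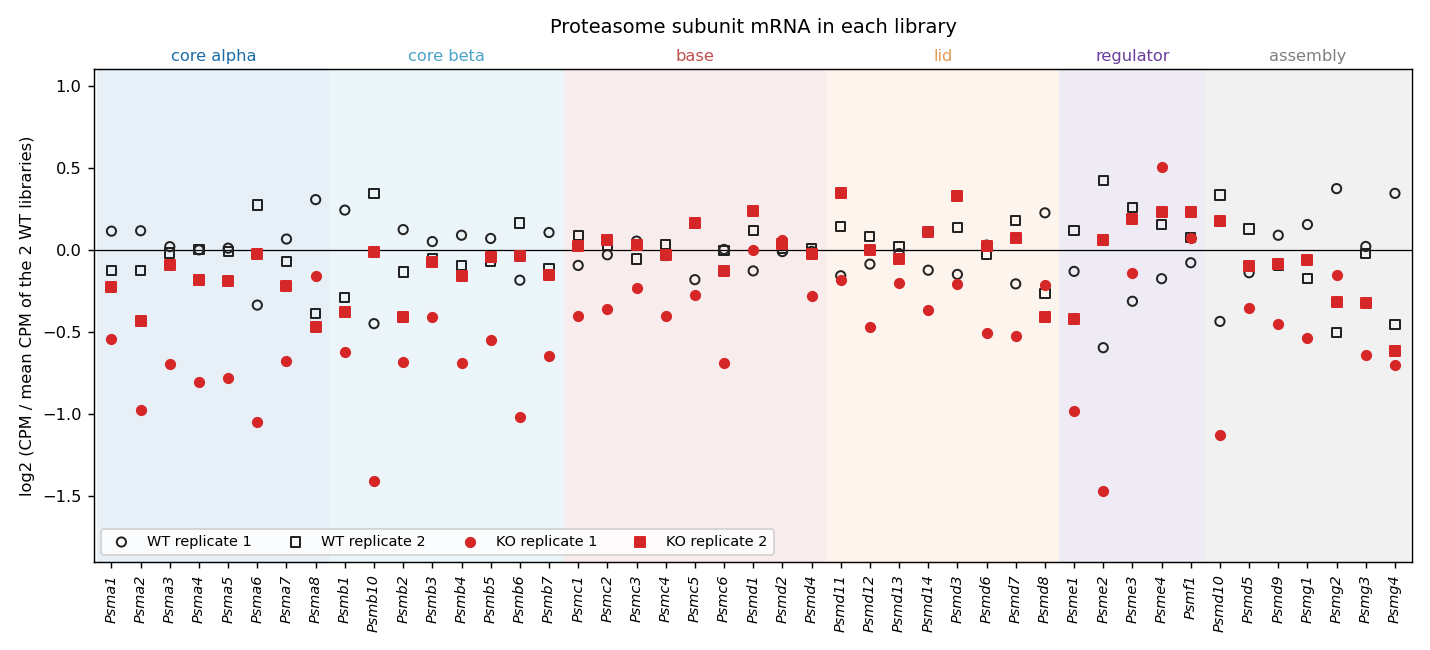
Level of each of the 45 proteasome subunit mRNAs in each of the 4 libraries. The vertical axis is the log2 of the CPM over the mean CPM of the 2 WT libraries, so 0 is that mean, and the shaded blocks group the genes by their place in the proteasome. KO replicate 1 (filled circles) is the lowest point for 37 of 45 genes, and for 15 of the 16 core genes, while KO replicate 2 (filled squares) lies close to the WT points in the base and the lid.

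The classes differed in where their values lay. The median log2 fold change was -0.44 over the core alpha genes and -0.42 over the core beta genes, and it was -0.14 over the base and -0.16 over the lid. Over the assembly genes it was -0.28 and over the regulators 0.03. All 16 core genes had a negative value, from -0.68 to -0.23, although Psmb5 turned to 0.09 once a trend of each library with gene length was removed. Of the 17 base and lid genes, 13 were negative, from -0.38 to 0.12. This count was 7 on log2(FPKM + 1) and 5 without KO replicate 1. It was 15 once the length trend was removed, and 16 when KO replicate 2 was left out. Leaving out WT replicate 1 gave 15, and 12 were negative if the other WT library was dropped. The base median turned to 0.0034 on log2(FPKM + 1), where FPKM is the count scaled by gene length and library total. On that scale the median of all tested genes was 0.108. The base and lid median less that of all genes was -0.105 there, against -0.176 on counts. The regulator median turned to -0.0043 with DESeq2's size factors, which took the median of all tested genes from 0.04 to 0.0026. It turned to -0.23 without WT replicate 1 and to -0.15 without KO replicate 2. The regulator median was 0.19 without KO replicate 1 and 0.20 without WT replicate 2. Both KO libraries lay below both WT libraries for 6 of 8 core alpha, 5 of 8 core beta, 2 of 9 base, 1 of 8 lid, 1 of 5 regulator and 2 of 7 assembly genes. Over all tested genes this share was 16.9%.

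The mean log2 level of the core genes less that of the base and lid genes gave 1 value per library. It was 0.07 and -0.10 in WT and -0.43 and -0.25 in KO, so the genotypes did not overlap. The difference was -0.32. Core genes are shorter than those of the base and lid: their median length, as count and FPKM imply it, was 2233 bases, against 3876 in the base and lid and 5223 over all tested genes. After the trend with gene length was removed, the values were -0.06 and -0.10 in WT and -0.33 and -0.21 in KO, and the difference was -0.19. An exact permutation test of 2 against 2 libraries cannot give a two-sided p under 0.333, and since the classes were chosen with results known, none is given.

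Within number 1 the core alpha and core beta medians were -0.73 and -0.79, and the base and lid medians were both -0.28. Within number 2 they were -0.17 and -0.08, against 0.00 and -0.04. Without KO replicate 1 the medians were -0.20 for core alpha, -0.11 for core beta, 0.03 for the base and 0.05 for the lid. Without KO replicate 2 they were -0.74, -0.67, -0.28 and -0.30. The order of core below base and lid was thus present within each number, at sizes that differed.

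**Figure D2:**
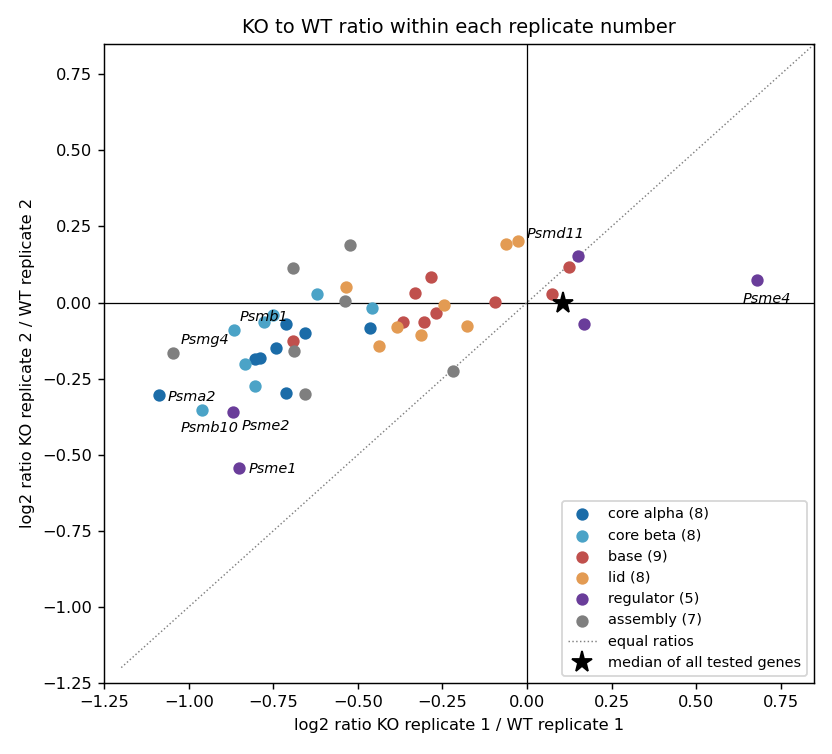
Log2 ratio of KO to WT within replicate number 1 (horizontal axis) and within number 2 (vertical axis) for the 45 genes, coloured by class, with the median of all tested genes as a star at 0.11 and 0.00. The core genes lie to the left, between -1.09 and -0.46 on the horizontal axis, and near 0 on the vertical axis, where their range is -0.35 to 0.03.

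As a share of all counts, the 45 genes took 0.637% and 0.628% in WT and 0.526% and 0.617% in KO. The mean was 0.632% ± 0.00664 in WT and 0.571% ± 0.0645 in KO (SD, n = 2 each). KO replicate 1 was lower than the rest, and KO replicate 2 was close to WT. Psmd8 alone had 17529 of the 108300 counts of the members in WT replicate 1, and without it the shares were 0.534%, 0.555%, 0.437% and 0.548%.

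Among the core alpha genes, Psma2 (ENSMUSG00000015671, chromosome 13, 14613242 to 14625671 on GRCm38, plus strand, 8 exons in its principal transcript) had the smallest p of its class. Its level was 283 and 239 CPM in WT and 133 and 194 CPM in KO. Both KO libraries were below both WT libraries, and KO replicate 1 was the lowest. KO differed from WT by -0.68 on the log2 scale (SE 0.29, adjusted p 0.795 in edgeR), and the 95% confidence interval ran from -1.41 to 0.05. The number 1 libraries gave a ratio of -1.09 and the number 2 libraries one of -0.30. Without KO replicate 1 the fold change was -0.43. The implied length of Psma2 is 944 bases, against 2911 in its principal transcript. The length correction, which uses the implied length, took its value to -0.32.

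Psma8 encodes the alpha subunit of the meiotic proteasome in testis. It was the lowest of the alpha genes, at 5.48 and 3.39 CPM in WT and 3.97 and 3.20 CPM in KO, from 54 to 89 counts per library. Its libraries overlapped between genotypes (log2 fold change -0.31, SE 0.38). The other alpha genes, Psma1 and Psma3 to Psma7, had fold changes between -0.46 and -0.36 on the log2 scale. Both KO libraries were below both WT libraries in 5 of these 6, against 16.9% of all tested genes. The exception was Psma6, with 202 and 309 CPM in WT and 123 and 251 CPM in KO.

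The proteolytic sites belong to 3 constitutive beta subunits. Psmb5 (chymotrypsin-like activity; chromosome 14, 54614120 to 54617995) had 172 and 156 CPM in WT and 112 and 159 CPM in KO, with a log2 fold change of -0.28 (SE 0.27). Psmb6 (caspase-like activity; chromosome 11, 70525367 to 70527858) had 438 and 558 CPM in WT and 246 and 485 CPM in KO, with -0.45 (SE 0.39). Psmb7 (trypsin-like activity; chromosome 2, 38588036 to 38644087) had 183 and 157 CPM in WT and 109 and 153 CPM in KO, with -0.38 (SE 0.27). In all 3, KO replicate 1 was the lowest and KO replicate 2 lay within or close to the WT range. Without KO replicate 1 the fold changes were -0.04, -0.04 and -0.15, and without KO replicate 2 they were -0.56, -1.03 and -0.65. Their edgeR adjusted p-values were 0.957, 0.949 and 0.928. Psmb7 overlaps Nek6, so counts of these genes may be shared.

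Among the other beta genes, Psmb2 had the smallest p of the class. It stood at 124 and 104 CPM in WT and 71.2 and 85.9 CPM in KO, which did not overlap (log2 fold change -0.54, SE 0.24, adjusted p 0.830 in edgeR), and the length correction gave -0.32. Psmb1 had 357 and 247 CPM in WT and 196 and 232 CPM in KO (-0.50, SE 0.28), and Psmb3 had 95.2 and 88.7 CPM in WT and 69.3 and 87.5 CPM in KO (-0.23, SE 0.24). In both genes the KO libraries were below the WT libraries, in Psmb3 by little for KO replicate 2. The value of Psmb1 was -0.21 without WT replicate 1, -0.77 without WT replicate 2 and -0.14 with the length correction. That of Psmb3 was -0.07 without KO replicate 1, -0.41 without KO replicate 2 and -0.14 with the length correction.

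Psmb10 (chromosome 8, 105935728 to 105938392) encodes the interferon-inducible subunit that takes the place of Psmb7 in the immunoproteasome. Its level was 120 and 208 CPM in WT and 61.8 and 163 CPM in KO. The number 2 libraries were above the number 1 libraries in both genotypes, and the genotypes overlapped. The fold change was -0.55 on the log2 scale (SE 0.54, adjusted p 0.957 in edgeR). It was -0.96 between the number 1 libraries and -0.35 between the number 2 libraries. Leaving out KO replicate 1, KO replicate 2, WT replicate 1 or WT replicate 2 gave -0.01, -1.42, -0.89 and -0.13, and the length correction gave -0.34. Psmb8 and Psmb9, the other inducible subunits, stood outside the members and are given for comparison. Psmb8 had 170 and 176 CPM in WT and 78.2 and 111 CPM in KO (-0.87, SE 0.27, p 0.0214 in edgeR, adjusted p 0.544). Psmb9 had 39.9 and 41.2 CPM in WT and 15.9 and 30.6 CPM in KO (-0.80, SE 0.36, adjusted p 0.824 in edgeR). For these 2 the KO libraries were below both WT libraries, and WT libraries were nearly equal.

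In the base, values were close to 0 with Psmc6 as the lowest. Psmc6, an ATPase subunit (chromosome 14, 45329824 to 45349071), had 177 and 177 CPM in WT and 110 and 162 CPM in KO, a difference of -0.38 on the log2 scale (SE 0.28, adjusted p 0.928 in edgeR). The value was -0.13 without KO replicate 1, -0.70 without KO replicate 2 and -0.17 with the length correction. Its KO libraries were below WT, as were those of Psmd4, the ubiquitin receptor, at 107 and 109 CPM in WT and 89.1 and 106 CPM in KO (-0.15, SE 0.23). The value of Psmd4 was -0.02 without KO replicate 1, -0.28 without KO replicate 2 and -0.24 with the length correction. Psmc1, another ATPase, had 150 and 171 CPM in WT and 122 and 163 CPM in KO (-0.17, SE 0.26), with overlap. Its sign turned with the length correction, to 0.04. Across the 9 base genes the fold changes ran from -0.38 to 0.12 on the log2 scale. Psmd1 and Psmd2, the large scaffold subunits, were the 2 with positive values, and these were named after their values were seen. Psmd2 had 249 and 253 CPM in WT and 262 and 258 CPM in KO, and Psmd1 had 173 and 205 CPM in WT and 188 and 222 CPM in KO. With the length correction neither value stayed above 0.

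In the lid, Psmd14, the deubiquitinase that removes ubiquitin chains, had 94.1 and 111 CPM in WT and 79.4 and 110 CPM in KO, a difference of -0.11 on the log2 scale (SE 0.27, adjusted p 0.982 in edgeR). Psmd8, which encodes a structural lid subunit, had the most counts of all members and also the smallest p in the lid. It stood at 1080 and 767 CPM in WT and 798 and 695 CPM in KO (-0.31, SE 0.26, adjusted p 0.946 in edgeR). Its WT replicate 1 was the highest of the 4 libraries, and WT replicate 2 lay between the KO libraries. Leaving out WT replicate 1 took Psmd8 to -0.04, leaving out WT replicate 2 took it to -0.57, and the length correction gave -0.17. Psmd11, the lowest of the lid by FPKM, had 52.4 and 64.5 CPM in WT and 51.4 and 74.2 CPM in KO (0.10, SE 0.29), and its value turned to -0.04 with the length correction. Across the 8 lid genes the fold changes ran from -0.31 to 0.10 on the log2 scale, and KO replicate 1 was the lowest library for 7 of them. Both KO libraries were below WT for 1 of the 8 lid genes, Psmd13, and above for 0, where 16.9% and 19.9% of all tested genes were.

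The regulators went different ways. Psme1, the alpha subunit of PA28 (ENSMUSG00000022216, chromosome 14, 55578123 to 55581529, plus strand, 11 exons), had 90.3 and 108 CPM in WT and 50.1 and 73.8 CPM in KO. Its KO libraries were below both WT libraries. KO differed from WT by -0.68 on the log2 scale (SE 0.29, adjusted p 0.795 in edgeR), with an interval from -1.40 to 0.05. Within numbers 1 and 2 the ratios were -0.85 and -0.54, and number 2 gave it the lowest ratio of all members. The length correction left it at -0.75, and without KO replicate 1 it was -0.42. Psme1 overlaps Emc9, so counts of these genes may be shared.

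Psme2, the partner of Psme1 in PA28, lies near it on chromosome 14, from 55587441 to 55591113. It had 47.1 and 95.3 CPM in WT and 25.8 and 74.3 CPM in KO (log2 fold change -0.51, SE 0.60, adjusted p 0.964 in edgeR). Number 2 was above number 1 in each genotype, and the genotypes overlapped. The sign turned without KO replicate 1 (0.06) and without WT replicate 2 (0.05). A copy of it, Psme2b on chromosome 11 (48945354 to 48946190), received 2684 and 5300 WT counts and 1595 and 4948 KO counts, more than the 765, 1520, 481 and 1463 counts of Psme2. The copies can share reads, so the level of Psme2 is uncertain. With their counts summed the log2 fold change was -0.55 (SE 0.60, adjusted p 0.962 in edgeR).

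Psme4, which encodes PA200, was above WT in both KO libraries, at 48.4 and 61.0 CPM in WT and 77.6 and 64.2 CPM in KO. KO differed from WT by 0.37 on the log2 scale (SE 0.25, interval -0.27 to 1.02, adjusted p 0.912 in edgeR). The ratio was 0.68 for number 1 and 0.07 for number 2, and the length correction gave 0.24. The value was 0.23 without KO replicate 1 and 0.22 without WT replicate 1. Psme3, the nuclear PA28 gamma, had 65.6 and 97.3 CPM in WT and 73.7 and 92.8 CPM in KO (0.03, SE 0.30). Its value was -0.0043 with DESeq2's size factors, which took the median of all tested genes from 0.04 to 0.0026. Psmf1, the inhibitor PI31, had 20.8 and 23.1 CPM in WT and 23.1 and 25.7 CPM in KO (0.15, SE 0.22). The Psmf1 levels of KO replicate 1 and WT replicate 2 were alike, and KO replicate 2 was the highest. The length correction took Psmf1 to 0.0025. Leaving out KO replicate 2, WT replicate 1 or KO replicate 1 gave 0.07, 0.08 and 0.23.

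**Figure D3:**
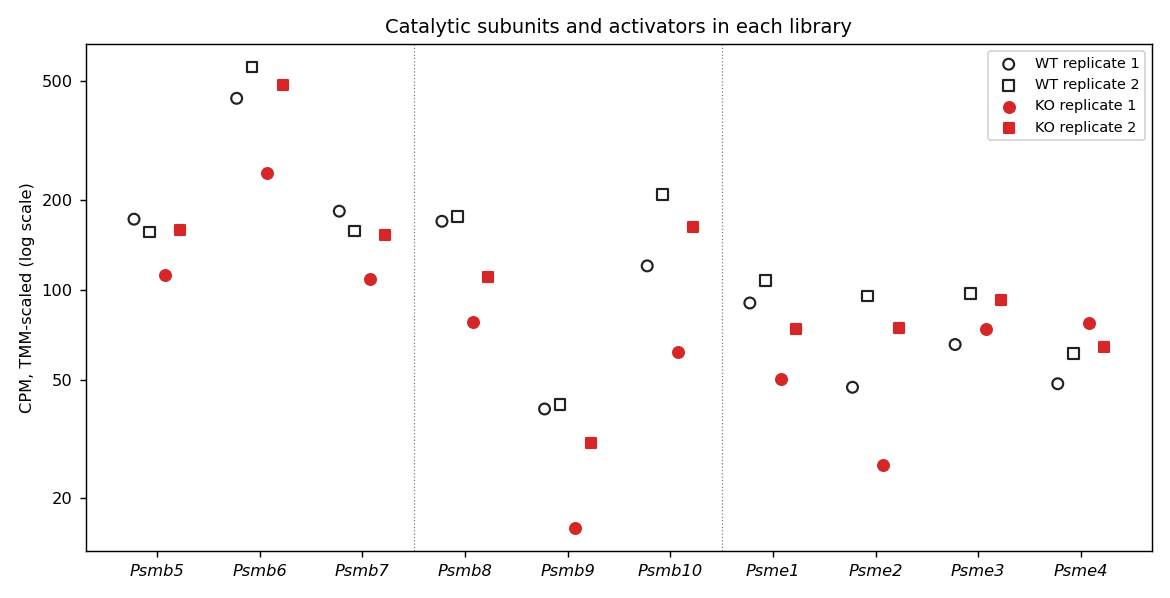
CPM, on a log axis, of the constitutive catalytic subunits (left), the interferon-inducible catalytic subunits (middle) and the activators (right) in each library, with WT as open and KO as filled symbols. Psmb7, Psmb8, Psmb9 and Psme1 have both KO points below both WT points, and Psme4 has them above. Number 2 lies above number 1 in each genotype for Psmb6, Psmb8, Psmb9, Psmb10, Psme1, Psme2 and Psme3.

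Interferon-inducible genes had mostly negative values, with the larger differences between the number 2 libraries. Of 24 on the list, 23 were tested. Their median was -0.76 on the log2 scale and 22 were negative, where 45.4% of all tested genes were. Between the number 1 libraries their median ratio was -0.18 and between the number 2 libraries -0.996, where the members had -0.53 and -0.07. At an unadjusted p under 0.05 in edgeR 4 were lower and 0 were higher, where 1.99% of all tested genes were lower and 4.64% higher, and 0 passed after adjustment. Their summed level was 600 and 1714 CPM in WT and 546 and 996 CPM in KO, so it was highest in WT replicate 2, and the number 2 libraries were above number 1 in each genotype. The part of this in the values of Psmb10, Psme1 and Psme2 was not tested.

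The assembly genes had the lowest median FPKM of the classes, 6.59, though Psmd10 stood at 45.9. Psmg4, a chaperone of the core, had 33.0 and 19.0 CPM in WT and 16.0 and 17.0 CPM in KO (log2 fold change -0.66, SE 0.32, adjusted p 0.848 in edgeR), where WT replicate 1 was far above the rest. Its value was -0.21 without that library, -1.04 without WT replicate 2 and -0.20 with the length correction, and its implied length, 742 bases, was the shortest of the members. Psmg3, its partner, had 20.1 and 19.6 CPM in WT and 12.8 and 15.9 CPM in KO (-0.47, SE 0.24, adjusted p 0.848 in edgeR), with both KO libraries below. Psmd10, gankyrin, which chaperones the base, had 65.1 and 111 CPM in WT and 40.3 and 99.4 CPM in KO (-0.33, SE 0.51), with number 2 above number 1. All 7 assembly genes had a negative value in the main test, and 6 did once the length trend was removed.

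**Figure D4:**
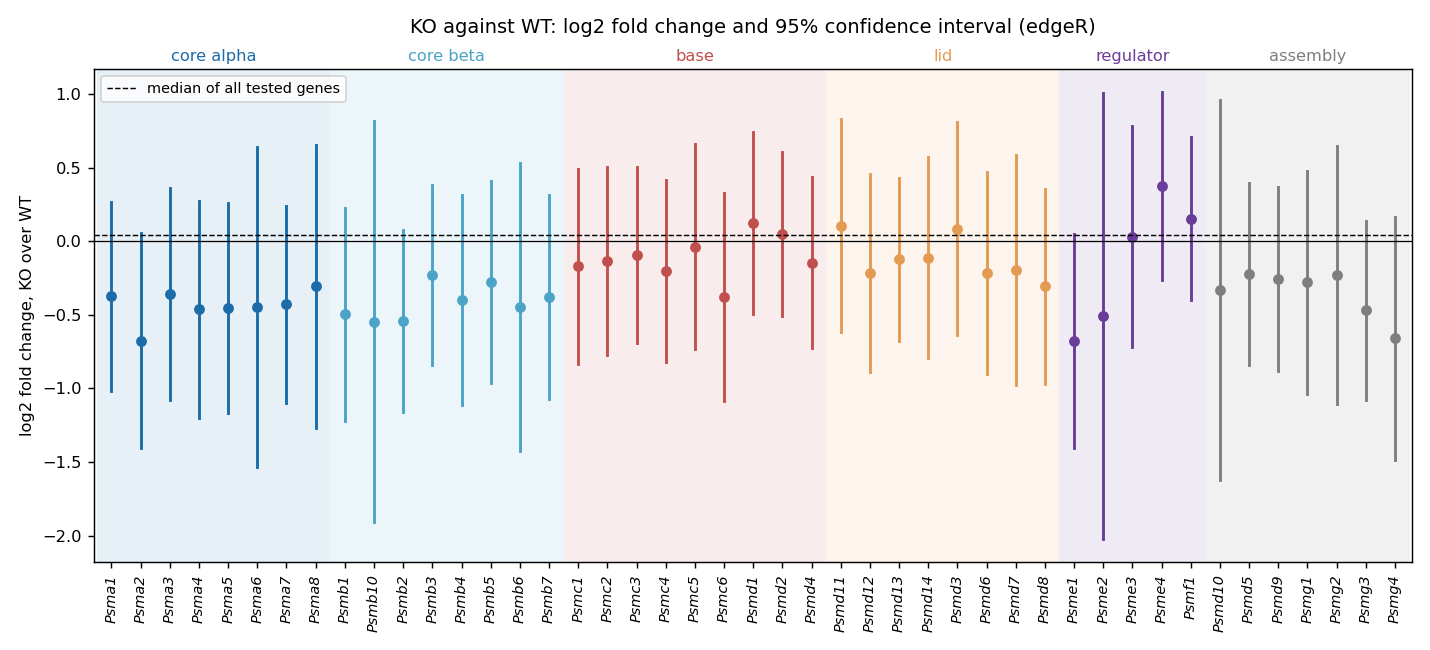
Log2 fold change of KO over WT for each of the 45 genes with its 95% confidence interval, from edgeR's quasi-likelihood test of 2 against 2 libraries, grouped by class. Every interval contains 0, and the dashed line is the median of all tested genes, 0.04.

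Per length, the subunits covered a wide range. The mean FPKM over the 4 libraries ran from 2.25 for Psmf1 to 377 for Psmd8, a 168-fold span. This scale divides by the length that count and FPKM imply, which exceeded the length of a principal annotated transcript for 38 of 45 genes. Over all 45 genes the median ratio of these lengths was 2.20. Divided instead by the length of that transcript, all 45 genes spanned 233-fold, from Psma8 to Psmd8. Base genes were nearly even on this scale: from 63.5 for Psmd1 to 98.6 for Psmc3, a 1.55-fold span, where their FPKM spanned 6.55-fold. Core alpha genes spanned 93.7-fold in FPKM and 88.3-fold per transcript length, with Psma8 as the lowest on both. Core beta genes spanned 7.45-fold in FPKM and 5.15-fold per transcript length with Psmb6 as the highest there, at 533. Lid genes spanned 64.4-fold and 20.1-fold, in both cases with Psmd8 at the top. The transcript-length scale was added after the data were seen.

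**Figure D5:**
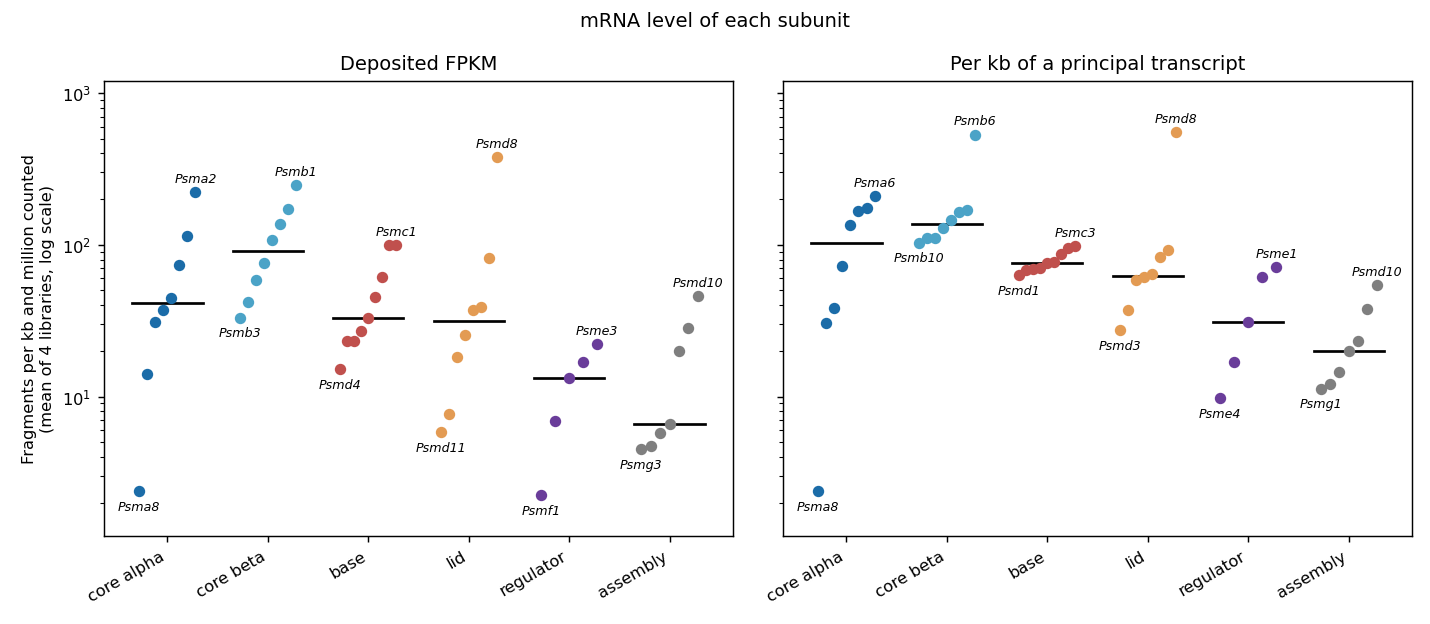
Mean level of each gene over the 4 libraries, on log axes, as deposited FPKM (left) and per kilobase of a principal transcript (right), by class, with the class median as a bar. The base genes lie between 63.5 and 98.6 on the right, where on the left they lie between 15.2 and 99.3, and Psmd8 is the highest of the members on both.

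On the transcript scale the class medians ran from core beta (137) and core alpha (103) to base (75.3), lid (62.5), regulator (30.9) and assembly (19.8). The ranges of neighbouring classes overlapped. Core beta genes began at 103, for Psmb10, which was above every base gene, and the core alpha genes ran from 2.37 for Psma8 to 209 for Psma6. In FPKM the medians were 91.1, 41.1, 33.1, 31.3, 13.3 and 6.59 in the same order.

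Promoter sequence was compared between the classes, as a feature that the rule did not use. RefSeq promoters (GRCm38.p6, from 250 bases before to 50 bases after the annotated start) were found for 37 of 45 members. Of these, 3 genes had more than 1 promoter, and a gene was counted if any of its promoters held the letters. Each promoter was searched on both strands for CCGGAAG, the core of sites for ETS factors, for CCAAT, the box bound by NF-Y, and for TGACNNNGC, the core of the antioxidant response element to which the transcription factors NRF1 and NRF2 bind. CCGGAAG stood in 14 of 37 members (37.8%) and in 9.93% of 27025 genes. In the base and lid 9 of 14 had it (64.3%), and in the core 1 of 12 (8.33%), Psma6. Of the regulators 2 of 5 had it (40.0%), and of the assembly genes 2 of 6 (33.3%). CCAAT stood in 12 of 37 members (32.4%), against 41.1% of all genes, and in 5 of 7 core alpha (71.4%), 1 of 5 core beta, 3 of 8 base and 1 of 6 lid genes. It also stood in 1 of 5 regulators and 1 of 6 assembly genes. TGACNNNGC stood in 6 of 37 members (16.2%), against 14.0% of all genes, and in 0 of 7 core alpha, 2 of 5 core beta (Psmb5 and Psmb6), 1 of 8 base and 1 of 6 lid genes. Among regulators 1 of 5 had these letters, and among assembly genes 1 of 6. These are matches of letters, and the shares were not tested between classes. The 27025 genes were not limited by a count minimum, as the members were.

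Stretches upstream of 7 of these genes are shown as examples of each motif, with the motif in capitals, and letters of a match on the other strand appear as its reverse complement. Each reads 5′ to 3′ on the strand of the gene and ends before any annotated gene sequence. Psma1 and Psma6 show CCAAT, Psmb5 and Psmb6 show TGACNNNGC, and Psmc6, Psmd2 and Psmd11 show CCGGAAG. The stretch of Psma6 comes from one of its promoters, which holds its CCAAT matches, and its CCGGAAG matches all lie in the other promoter.
Psma1, chr7:114276119-114276236, minus strand: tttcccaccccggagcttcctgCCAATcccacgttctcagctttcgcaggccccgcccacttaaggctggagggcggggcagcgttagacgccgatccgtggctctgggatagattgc
Psma6, chr12:55384102-55384221, plus strand: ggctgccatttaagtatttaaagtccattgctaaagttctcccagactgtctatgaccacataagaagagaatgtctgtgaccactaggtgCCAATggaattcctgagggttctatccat
Psmb5, chr14:54618023-54618115, minus strand: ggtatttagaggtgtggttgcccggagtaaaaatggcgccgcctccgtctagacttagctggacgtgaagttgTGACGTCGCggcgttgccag
Psmb6, chr11:70525237-70525356, plus strand: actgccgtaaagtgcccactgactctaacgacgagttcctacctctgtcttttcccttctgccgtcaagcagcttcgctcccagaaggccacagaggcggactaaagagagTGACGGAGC
Psmc6, chr14:45329704-45329787, plus strand: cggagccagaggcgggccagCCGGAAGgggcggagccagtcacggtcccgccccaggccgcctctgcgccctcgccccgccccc
Psmd2, chr16:20651532-20651651, plus strand: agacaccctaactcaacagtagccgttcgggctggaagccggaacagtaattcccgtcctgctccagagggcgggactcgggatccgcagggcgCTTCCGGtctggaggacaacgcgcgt
Psmd11, chr11:80428495-80428614, plus strand: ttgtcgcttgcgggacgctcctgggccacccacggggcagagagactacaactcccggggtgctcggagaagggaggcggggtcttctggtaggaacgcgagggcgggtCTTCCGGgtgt

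The letters stood close to the annotated start in most of these. In Psmd11 and Psmd2 the ETS core began 11 and 26 bases before the start, and in Psmb6 and Psmb5 the TGACNNNGC match began 9 and 47 bases before it. Psmc6, with its ETS core 100 bases before the start, had the lowest fold change of the base, -0.38, and Psmd2 and Psmd11, with the same letters, had 0.05 and 0.10. The other 6 base and lid genes with these letters had values between -0.22 and -0.12.

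Of 35 other genes of the pathway, 34 were in the table and tested. Their median log2 fold change was -0.01, with 17 below 0. At an unadjusted p under 0.05, 1 was lower (Psmb8) and 0 were higher, against 1.99% and 4.64% of all tested genes, and 0 passed after adjustment in edgeR. The KO libraries were below both WT libraries for 8 of 34 and above for 4, where 16.9% and 19.9% of all tested genes were. Sem1, a small lid subunit outside the naming pattern, had 314 and 185 CPM in WT and 136 and 153 CPM in KO (-0.79, SE 0.33, adjusted p 0.790 in edgeR). Pomp, the chaperone that matures the beta rings, had 197 and 177 CPM in WT and 110 and 137 CPM in KO (-0.59, SE 0.24, adjusted p 0.777 in edgeR). Both had KO below WT in every library.

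Ubb, which encodes a chain of ubiquitin units, had a log2 fold change of -0.39, and Rps27a, which encodes ubiquitin fused to a ribosomal protein, had -0.67, with adjusted p-values of 0.904 and 0.848 in edgeR. Within numbers 1 and 2 the ratios were -0.63 and -0.12 for Ubb and -1.26 and -0.07 for Rps27a. Vcp, the unfoldase that hands substrates to the proteasome, stood at 143 and 179 CPM in WT and 195 and 214 CPM in KO (0.35, SE 0.25, adjusted p 0.926 in edgeR). Nfe2l1, which encodes the factor NRF1 that raises proteasome genes when the proteasome is inhibited, had 92.6 and 68.2 CPM in WT and 58.8 and 82.9 CPM in KO (-0.18, SE 0.30). Its level overlapped between genotypes, and within the numbers the ratios were -0.66 and 0.28.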

How the data were processed

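Total RNA of 4 macrophage libraries was sequenced. Per the study's methods and the submitters' processing notes, the authors filtered reads with Seqtk, aligned them with HISAT2 2.0.4 and assembled and quantified genes with StringTie 1.3.3b. The deposited counts are whole numbers per gene, not normalised. The deposited FPKM are those counts scaled by gene length and library total: the gene length they imply differed between libraries by at most 0.00398% over 10564 genes, so they carry no TMM factor. The notes name the build mm39, but 27682 of 34745 genes, 34 of the 45 members among them, had the same start, end and strand in GENCODE M21, so positions are given on GRCm38. Whether counting used the strand is not given in the sources used here.

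The tests were run with edgeR 4.0.16 (R 4.3.3). Genes with low counts were dropped with filterByExpr at a minimum of 10 and a minimum total of 15, libraries were scaled by TMM (factors 0.955 and 0.942 in WT, 1.12 and 0.997 in KO), and the rest was tested by glmQLFit and glmQLFTest, two-sided, with genotype as the only term and Benjamini-Hochberg adjustment over all tested genes. A gene was called below an adjusted p of 0.05 if its log2 fold change exceeded 1 in size. Log2 ratios within a number had 0.5 counts added. Sampling noise was exceeded between every 2 libraries (chi-square 21.6 to 118 per degree of freedom), so none was a copy. The lowest value was between WT replicate 2 and KO replicate 2. It was 79.7 between WT replicate 1 and KO replicate 1, 113 between the WT libraries and 81.4 between the KO libraries. Alternatives included DESeq2 1.42.0, limma 3.58.1 on log2 FPKM, and a loess trend of each library with gene length (span 0.5). The code was tested on simulated data.

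Members, classes and lists were chosen with earlier results of these data known. Named were the catalytic subunits, the regulators, Psmd4 and Psmd14, and in each class the gene of smallest p and those of highest and lowest FPKM. Others are named as exceptions after their values were seen. Older symbols were matched by gene identifier. Of the other genes of the pathway, Paaf1 was not matched, and some are not reported here by name. Genes overlapping another gene with a mean count of at least 50 were 6 of the members. Named pseudogene rows of subunits were 4, with at most 5 counts.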

Additional observations from a re-analysis of the deposited data

How the results depend on the processing

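Calls among the 45 genes stayed at 0 under every alternative run that kept a fold change over 2 and in every fit without the replicate number. With a replicate block and no minimum fold change, added after seeing the data, edgeR called 2 (Psma2, adjusted p 0.0382, and Psme1, 0.0342) among 974 genes (7.84%), and with block and length correction together 2 were called as well (Psme1, 0.00107, and Psme2, 0.0261) among 1137 genes (9.16%). With the block and a fold change over 2 it called 664 genes (5.35%) and 0 members. With block, length correction and a fold change over 2 it called 606 genes (4.88%) and 0 members. The labels do not say that a number marks a shared origin, and with 2 pairs the deviations of same-numbered libraries correlated at 0.71, so a paired reading is not established; the biological coefficient of variation was 0.343 without the block and 0.169 with it.

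Leaving out 1 library at a time, the median log2 fold change ran from -0.5116 to -0.0431 over the members, from -0.7425 to -0.2021 over core alpha, from -0.6691 to -0.1104 over core beta, from -0.2844 to 0.0314 over the base and from -0.5446 to -0.0939 over the assembly genes. In each range the lowest value was without KO replicate 2 and the highest without KO replicate 1. Over the regulators it ran from -0.2251 without WT replicate 1 to 0.1973 without WT replicate 2. The same gave -1.4721 to 0.0627 for Psme2, -0.2251 to 0.3106 for Psme3, -0.3747 to 0.1084 for Psmd14, -0.6472 to 0.0814 for Psma8, -0.4067 to 0.0278 for Psmc1, -0.1920 to 0.3469 for Psmd11 and -1.1325 to 0.1781 for Psmd10, where the sign turned. The lone library of a genotype is assumed to vary like the other genotype.

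The length correction took the core less base and lid difference to -0.1943. Among the genes named by rule it turned the sign of Psmb5 (0.0921, and 0.0877 with the block), Psmc1 (0.0425 and 0.0499) and Psmd11 (-0.0376 and -0.0670), and with the block also that of Psmf1 (-0.0022). Among the other members it turned Psmg2 (0.149), Psmc5 (0.155), Psmd3 (-0.02), Psmd1 (-0.001) and Psmd2 (-0.02). DESeq2's size factors and Wald test gave -0.0043 for Psme3, and limma on log2(FPKM + 1) gave 0.0024 for Psmd4 and 0.0262 for Psmd14. In these fits the median of all genes was 0.0026, 0.0027 and 0.11, against 0.04 in the main fit. The cause of these turns was not tested. On log2(FPKM + 0.1) the median of all tested genes was 0.18, against 0.04 on counts, and the members' median less that of all genes was -0.30, against -0.32 on counts. This difference was -0.20 on log2(FPKM + 1), -0.19 with the length correction and -0.06 without KO replicate 1. Of 300 values of named genes under alternatives, 274 kept their direction and side of the adjusted p threshold of 0.05, and 22 turned sign. The other 4 passed that threshold, all with the replicate block. Their log2 fold changes were under 1 in size, so they were not calls. Of 23 genes, 13 never turned. With genotype as the only term, every 95% interval of a subunit contained 0.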

Other observations

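Several subunits differed between the replicate numbers in both genotypes. On the log2 scale, number 2 lay above number 1 by 1.02 in WT and 1.53 in KO for Psme2, by 0.79 and 1.40 for Psmb10, by 0.77 and 1.301 for Psmd10, by 0.61 and 1.03 for Psma6 and by 0.35 and 0.98 for Psmb6. They were picked on these values. Psme2 and Psmb10 are interferon-inducible, Psmd10 chaperones the base, and Psma6 and Psmb6 belong to the core. Over all 45 genes the median difference was 0.02 in WT, with 21 below 0, and 0.44 in KO, with 5 below 0. Over the 16 core genes it was -0.14 in WT and 0.52 in KO.

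Nfe2l2, which encodes NRF2, a factor of the oxidative stress response, showed a like split, at 412 and 1031 CPM in WT and 386 and 923 CPM in KO for numbers 1 and 2. Irf1, an interferon response factor, had 23.4 and 223 CPM in WT and 20.2 and 126 CPM in KO. The labels do not say what the numbers stand for.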
